A study of Mus musculus with 4 samples.

Results

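The genes of the mitochondrial respiratory chain and ATP synthase were examined in muscle stem cells (MuSCs) of overloaded and sham-operated plantaris muscle. The members were taken by name: 91 protein-coding nuclear genes whose symbols begin as those of complex I (Nduf), cytochrome c oxidase (Cox4 to Cox8), complex III (Uqcr) or ATP synthase (Atp5) or are Sdha to Sdhd, and the 31 genes of the mitochondrial chromosome that have a row in the count file, together 122 of its 19353 genes. The mitochondrial genes were 13 protein genes, 2 rRNA genes and 16 tRNA genes, and the remaining tRNA genes of that chromosome were not analysed here. Another 6 rows with such a name were pseudogenes or other non-coding entries and were not members. All mice carried Pax7-CreERT2:Rosa-YFP, in which tamoxifen lets a Cre recombinase made under the control of Pax7 switch on yellow fluorescent protein (YFP), and YFP-positive cells were collected at 100 per tube on day 4 after surgery. In the 2 overloaded libraries the distal tendons of the gastrocnemius and soleus had been cut (tenotomy), so that the plantaris took over their load. In the 2 sham libraries the skin had been cut and the tendons left intact. The age of these mice is not given in the sources used here, nor whether both libraries of 1 surgery were taken from separate mice, and p-values measure the spread between these libraries, which may be technical.

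The respiratory chain lies in the inner mitochondrial membrane. Complexes I and II pass electrons from NADH and succinate to ubiquinone, complex III passes them on to cytochrome c, and complex IV gives them to oxygen, while complexes I, III and IV pump protons that complex V, the ATP synthase, uses to make ATP. Complex II is made of nuclear-encoded subunits alone, whereas the other complexes join proteins made in the cytosol from nuclear mRNAs with core subunits that are encoded by mitochondrial DNA and translated inside the organelle. The mitochondrial genome is transcribed from both strands as long precursors, from which the tRNAs, rRNAs and short-tailed mRNAs are cut out. MuSCs at rest are known as small cells with few mitochondria, and cells that leave rest add mitochondrial mass.

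Libraries had been made by CEL-Seq2, which primes on poly(A) tails and tags each captured molecule before amplification with a unique molecular identifier (UMI), so that counts are of molecules rather than of reads. In all 269683 and 260488 UMIs were counted in the sham libraries and 387955 and 483528 in the overloaded ones, or 2697, 2605, 3880 and 4835 UMIs per sorted cell. More UMIs were thus counted in both overloaded tubes than in both sham tubes from the same number of cells. UMIs per tube also depend on the capture and sequencing depth of each library, which are not given in the sources used here. Values per tube are therefore not a measure of the RNA content of the cells. Values are given below as UMIs in the order sham 1, sham 2, overloaded 1 and overloaded 2, and fold changes are of overloaded over sham after TMM scaling, that is, relative to the bulk of the other transcripts and not per cell. Libraries of the same group differed little beyond sampling noise: the chi-square over genes, divided by its degrees of freedom, was 1.36 for the sham pair and 1.57 for the overloaded pair, against 7.61 to 9.31 for pairs across groups. A call means an adjusted p under 0.1 in the edgeR quasi-likelihood test over all 7228 genes that passed a filter on low counts. As these were bulk samples, more cells with a transcript and more of it per cell cannot be told apart.

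The sorted cells carried the markers of their label. Pax7, the transcription factor that marks MuSCs, had 118, 107, 108 and 137 UMIs, and all 10 MuSC markers examined were detected. Relative to other transcripts 2 of them rose (Itga7 and Cdh15) and 6 fell, where 25.8% of all genes tested were called higher and 26.3% lower. Pax7 itself was among those that fell (log2 fold change -0.84, adjusted p = 0.000635), as was Calcr, the calcitonin receptor of resting MuSCs, with 37, 57, 15 and 15 UMIs. In UMIs per tube 4 of the 10 were higher in both overloaded tubes and 3 lower, against 72.7% and 7.9% of all genes tested. Of the 10, 8 belonged to the most abundant 723 genes tested, of which 70.8% were called lower. The leukocyte marker Ptprc (CD45) was at or near 0 in all libraries (0, 1, 1 and 4 UMIs), although 8 leukocyte markers summed to 2, 5, 63 and 137 UMIs, led by Lyz2 (lysozyme) with 0, 0, 17 and 38. Myofibre markers were present in all libraries, and the 11 in the file summed to 434, 222, 1339 and 1576 UMIs, led by Acta1, the actin of skeletal muscle fibres, with 120, 66, 299 and 342. All 7 that could be tested rose, with a median log2 fold change of 1.12, among them Myh4, the myosin heavy chain of the fastest fibres, with 10, 5, 145 and 79 UMIs, whereas the other heavy chains Myh1, Myh2 and Myh7 had at most 2 UMIs in any library. Myh4 passed the filter on low counts through the overloaded libraries alone. The 6 that passed in both groups all rose, with a median of 0.97, where 14.9% of all such genes were called higher. Summed endothelial markers had 9, 4, 39 and 35 UMIs, mural cell markers 311, 280, 552 and 795 (led by Acta2), fibro-adipogenic markers 1111, 1010, 1331 and 1526 (led by Col3a1, with Pdgfra at 0, 0, 2 and 0), and erythroid markers 118, 4, 17 and 231. Overloaded over sham UMIs, with both tubes of a group summed, were 28.6 for leukocyte, 5.69 for endothelial, 4.44 for myofibre and 2.28 for mural cell markers. They were 1.35 for fibro-adipogenic markers and 1.61 for all genes tested. RNA of the myofibre, leukocyte and endothelial markers thus moved with the groups. Whether the myofibre markers came from myofibres or from differentiating sorted cells was not tested, nor was the part of any of these markers in the respiratory chain values.

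Most nuclear respiratory chain genes that could be tested were called higher in MuSCs of overloaded muscle. Summed over the 91 genes there were 2401, 2230, 5849 and 6958 UMIs, which was 0.890%, 0.856%, 1.51% and 1.44% of each library (95% exact Clopper-Pearson intervals 0.855 to 0.926%, 0.821 to 0.892%, 1.47 to 1.55% and 1.41 to 1.47%, counting error only). Both overloaded libraries lay above both sham libraries. Of the 91 genes 79 passed the filter, and 51 of these were called higher, 4 lower and 24 neither, where 25.8% of all genes tested were called higher and 26.3% lower. The median log2 fold change of the 79 was 0.82, with quartiles of 0.32 and 1.20, against 0.05 over all genes. Because 18 members passed the filter through the overloaded libraries alone and 1 through the sham libraries alone, the 60 that passed in both groups were also counted: 36 of them were called higher and 3 lower, against 14.9% and 32.9% of the 4745 genes that passed in both. Of all genes that passed through the overloaded libraries alone, 62.9% were called higher and 0 lower. These shares are the background of the counts of each complex and list given below. In UMIs per tube, with no scaling, 87 of the 91 genes were higher in both overloaded tubes than in both sham tubes, 3 overlapped and 1 (Atp5l) was lower. Of the 79 that were tested, 77 were higher in both overloaded tubes and 1 lower, against 72.7% and 7.9% of all genes tested. DESeq2 called fewer genes than edgeR, with 26 nuclear members higher and 1 lower, out of 967 and 1215 genes in all. Of the genes named below, 18 called by edgeR were not called by DESeq2: Sdha, Sdhd, Uqcrh, Cox8a, Atp5g1, Atp5k, Atp5l, Atp5b and Ndufaf3 of the nuclear members, mt-Co2, mt-Nd3 and mt-Nd4l of the mitochondrial mRNAs, and Gpd2, Ucp2, Sod1, Polrmt, Polg and Ppargc1b of the other lists. Leaving out each library in turn left 36 to 41 nuclear members higher and 2 (without overloaded replicate 2) to 5 lower.

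**Figure D1:**
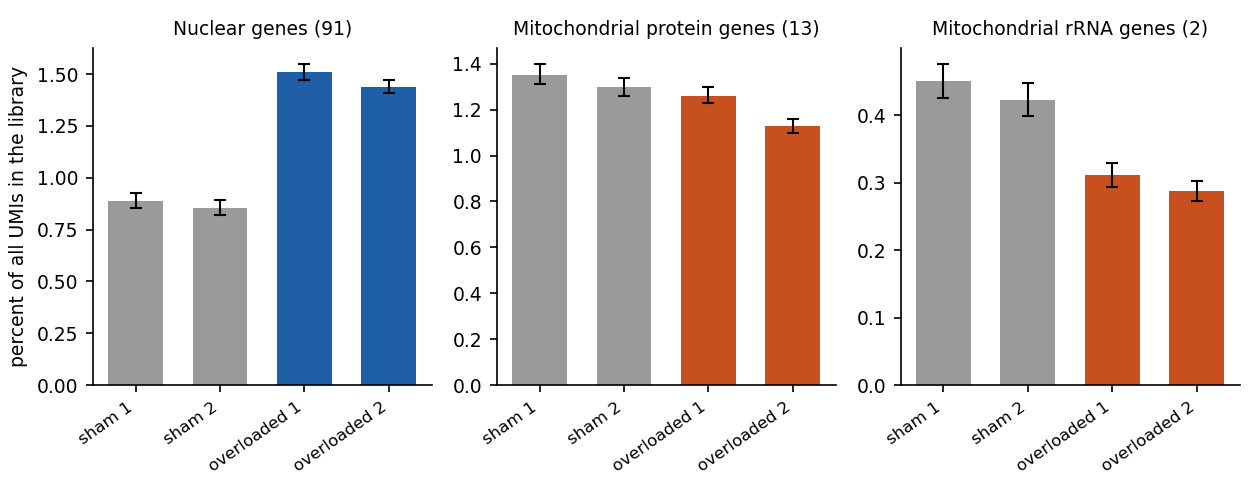
Percent of all UMIs of each library (y axis, from 0, separate scale per panel) taken by the 91 nuclear genes, the 13 mitochondrial protein genes and the 2 mitochondrial rRNA genes in the 2 sham (grey) and 2 overloaded (coloured) libraries, with 95% exact Clopper-Pearson intervals for counting error. The nuclear share went from 0.890% and 0.856% to 1.51% and 1.44%, while the mitochondrial protein genes had 1.35% and 1.30% in sham and 1.26% and 1.13% in overloaded libraries, where the number of UMIs per tube was higher.

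The starts of the nuclear genes were searched for the motifs of factors known to drive respiratory chain genes: GCGCA and GCGC with 1 free base between them for NRF1, CCGGAAGT for GABPA and other ETS factors, AAGATGGCG for YY1 and TCAAGGTCA for ESRRA, on both strands, from 250 bases before to 50 after the RefSeq start of each gene (assembly GRCm38.p6). The promoter table held 73 of the 91 members, with 78 promoters. The NRF1 letters stood in 25.6% of these promoters and in 4.6% of all 32851 promoters, the YY1 letters in 10.3% and 1.4%, the ETS letters in 6.41% and 3.89%, and the ESRRA letters in 2.56% and 0.423%. A promoter was counted once for each motif, also where a site of the form GCGCATGCGC reads as NRF1 on both strands. Among promoters of members called higher, 14 of 45 held the NRF1 letters, as did 4 of 20 of members not called and 0 of 4 of members called lower. A match is a description of the letters and not of binding. Of the genes named below, 3 that rose and held the NRF1 letters and 1 that fell and held the ETS letters are printed, each as the 250 bases before its start in the direction of the gene, with the matching letters in capitals. They lie at chr2:36049339-36049588 (Ndufa8), chr5:108434400-108434649 (Atp5k), chr9:50603850-50604099 (Sdhd) and chr4:116075071-116075320 (Uqcrh), all on the minus strand.
Ndufa8: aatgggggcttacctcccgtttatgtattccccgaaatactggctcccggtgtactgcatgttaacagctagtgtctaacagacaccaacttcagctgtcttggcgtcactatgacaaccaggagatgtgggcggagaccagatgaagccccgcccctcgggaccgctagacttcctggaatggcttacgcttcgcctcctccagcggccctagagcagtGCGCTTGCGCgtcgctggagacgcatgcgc
Atp5k: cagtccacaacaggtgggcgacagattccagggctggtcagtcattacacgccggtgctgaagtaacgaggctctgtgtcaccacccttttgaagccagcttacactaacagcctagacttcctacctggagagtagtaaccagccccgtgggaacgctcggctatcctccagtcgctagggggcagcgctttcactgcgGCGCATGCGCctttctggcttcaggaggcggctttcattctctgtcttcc
Sdhd: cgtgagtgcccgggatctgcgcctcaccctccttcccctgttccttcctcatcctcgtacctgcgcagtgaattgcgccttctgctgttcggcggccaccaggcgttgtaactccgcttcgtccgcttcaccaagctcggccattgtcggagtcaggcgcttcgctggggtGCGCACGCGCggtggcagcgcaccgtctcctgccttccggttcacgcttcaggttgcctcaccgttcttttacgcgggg
Uqcrh: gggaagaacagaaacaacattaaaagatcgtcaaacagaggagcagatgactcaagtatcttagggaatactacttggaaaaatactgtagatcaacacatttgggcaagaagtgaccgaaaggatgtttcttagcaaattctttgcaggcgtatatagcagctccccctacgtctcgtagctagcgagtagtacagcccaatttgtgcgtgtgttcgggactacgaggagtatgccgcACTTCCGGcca
The capitals mark the reverse form of the NRF1 letters in Ndufa8, the form shared by both strands in Atp5k, the forward form in Sdhd, and the reverse form ACTTCCGG of the ETS letters in Uqcrh. Sdhd also held the ESRRA letters, but not within the printed 250 bases. Among other members named below for their large rise or fall, Ndufa12, Ndufa4, Sdhb, Atp5g1, Ndufaf3, Cox7a2l, Atp5l and Atp5b held none of these letters.

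Complex I, the NADH dehydrogenase, held 36 of the nuclear members, of which 32 were tested. There were 22 called higher and 0 lower, and the median log2 fold change was 0.85. Of the 29 that passed the filter in both groups 19 were higher. Its summed UMIs were 663, 626, 1930 and 2424. Ndufa8, an accessory subunit on the side facing the intermembrane space (ENSMUSG00000026895, chr2:36036326-36049406, minus strand), had 7, 11, 60 and 93 UMIs. Both overloaded libraries were far above both sham libraries, and the log2 fold change was 2.11 (SE 0.32, adjusted p = 5.40e-05). Ndufa8 passed the filter through the overloaded libraries alone, where 62.9% of all such genes were called higher. Ndufa12, another accessory subunit, had 13, 10, 65 and 79 UMIs and a log2 fold change of 1.68 (SE 0.29, adjusted p = 0.000181). The other 20 complex I genes that rose had log2 fold changes of 0.61 (Ndufv3) to 1.55 (Ndufa5), and the 10 that were not called ranged from -0.27 (Ndufb2) to 0.48 (Ndufa10).

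Complex II, succinate dehydrogenase, links the chain to the tricarboxylic acid cycle, and all 4 of its genes rose, with a median log2 fold change of 1.11, although Sdhd passed the filter through the overloaded libraries alone. Sdha, the flavoprotein that oxidizes succinate, had 28, 37, 96 and 115 UMIs (log2 fold change 0.74, SE 0.21, adjusted p = 0.0103). Sdhb, the iron-sulfur subunit, had 14, 11, 68 and 64 UMIs and the largest change of the 4 (1.44, SE 0.31, adjusted p = 0.00109). The membrane anchors Sdhc and Sdhd bind ubiquinone. Sdhc had 20, 19, 68 and 96 UMIs (1.10, SE 0.24, adjusted p = 0.00150), and Sdhd had 6, 6, 23 and 28 (1.11, SE 0.43, adjusted p = 0.0412). In none of the 4 did the groups overlap, where 37.5% of all genes tested were higher and 35.4% lower without overlap. The call of Sdha was lost without sham replicate 1 (adjusted p = 0.214), and that of Sdhd whichever library was left out (0.117 to 0.162). DESeq2 called neither Sdha nor Sdhd (0.112 and 0.284), and Sdhd was not called after correction for abundance (0.86, adjusted p = 0.123).

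Of the 8 complex III genes 6 rose and 1 fell, but 4 of the 8 passed the filter through the overloaded libraries alone, and of the 4 that passed in both groups 3 rose and 1 fell, against 14.9% and 32.9% of all such genes. Uqcrc2, a core protein of the complex (chr7:120635176-120659524, plus strand), had 1, 2, 13 and 22 UMIs. With so few sham counts its change is given as a ratio of 5.98 between the summed UMIs of the groups after TMM scaling (95% interval 1.89 to 30.4, counting error only), with an adjusted p of 0.00320. Uqcrc2 is 1 of the 4 that passed the filter through the overloaded libraries alone, where 62.9% of all such genes were called higher. Uqcrq, a small subunit of the complex, was better counted, with 28, 26, 122 and 147 UMIs, and rose by 1.35 on the log2 scale (SE 0.21, adjusted p = 6.35e-05). Uqcrh, the hinge protein that helps cytochrome c meet the complex, went the other way. Its UMIs were 113, 103, 148 and 126, and relative to other transcripts it fell by 0.60 on the log2 scale (SE 0.19, adjusted p = 0.0186), although it was not lower per tube (0.34, adjusted p = 0.146) and did not differ after correction for abundance (0.00028, adjusted p = 0.999). Without overloaded replicate 2 the call of Uqcrh was lost (adjusted p = 0.209). Uqcrb was not called (log2 fold change 0.70, adjusted p = 0.130).

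Complex IV, cytochrome c oxidase, held 18 nuclear members, of which 12 were tested, 6 rose and 1 fell, with a median log2 fold change of 0.40. Of the 11 that passed the filter in both groups 5 rose and 1 fell. Ndufa4, counted here with complex IV although it was named after complex I, had 14, 12, 64 and 66 UMIs and rose by 1.36 (SE 0.29, adjusted p = 0.00122). Cox7a2l, which helps join complexes III and IV into supercomplexes, had 64, 70, 67 and 80 UMIs. These counts hardly differed between tubes, and relative to other transcripts Cox7a2l fell by 0.83 on the log2 scale (SE 0.19, adjusted p = 0.00196), against 0.13 per tube (adjusted p = 0.669). The abundant Cox4i1, Cox6a1, Cox6c, Cox7a2 and Cox7c were not called, with log2 fold changes of -0.35 to 0.20.

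Several complex IV and V subunits exist as isoforms, some of which are known from heart and skeletal muscle fibres. Cox6a2, the muscle form of subunit 6a (chr7:128205435-128206387, minus strand), had 11, 4, 30 and 74 UMIs. It rose by 1.80 (SE 0.45, adjusted p = 0.00354; 2.63 without sham replicate 1), while its widely expressed partner Cox6a1 had 77, 91, 134 and 147 UMIs (log2 fold change -0.21, adjusted p = 0.347). Cox6a2 passed the filter through the overloaded libraries alone, whereas Cox6a1 passed in both groups, and both libraries of a group differed widely in Cox6a2. The muscle form Cox7a1 had 0, 0, 4 and 13 UMIs, at least 2.91-fold higher in overloaded libraries if the sham group is set at a floor of 3 counts in all. Cox8b, also a muscle form, had 2, 1, 5 and 8 UMIs, a ratio of 2.22 (0.611 to 12.2) that counting error alone allows to be 1. Neither was tested, nor were Cox4i2 (1, 1, 0 and 3 UMIs) and Ndufa4l2 (0, 0, 2 and 3 UMIs). Of the common forms, Cox8a had 48, 39, 120 and 138 UMIs and rose by 0.61 (SE 0.19, adjusted p = 0.0164), a call lost without sham replicate 2 (0.235). Cox7a2, with 37, 25, 66 and 67 UMIs, was not called (0.15, adjusted p = 0.659), nor was Cox4i1, with 115, 87, 146 and 160 (-0.35, adjusted p = 0.115).

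All 16 nuclear members of complex V were tested, of which 8 rose and 2 fell. Of the 12 that passed the filter in both groups 6 rose and 1 fell, with a median log2 fold change of 0.43, against 14.9% and 32.9% of all such genes, while 3 passed through the overloaded libraries alone and Atp5l through the sham libraries alone. The membrane rotor of the ATP synthase is a ring of c subunits, whose mature protein is encoded by 3 nuclear genes. Atp5g3, the most counted of the 3, had 106, 104, 274 and 334 UMIs and rose by 0.57 (SE 0.16, adjusted p = 0.00816). Atp5g1 had 5, 3, 18 and 17 UMIs (1.15, SE 0.50, adjusted p = 0.0663), and Atp5g2 had 7, 5, 20 and 17 and was not called (0.66, adjusted p = 0.253). Both passed the filter through the overloaded libraries alone, and Atp5g1 was not called after correction for abundance (0.69, adjusted p = 0.304). Atp5k, the e subunit of the membrane part, had 17, 10, 48 and 63 UMIs and rose by 1.07 (SE 0.31, adjusted p = 0.00880). The g subunit Atp5l, of the same membrane part, was the 1 nuclear member with fewer UMIs in both overloaded tubes (17, 15, 10 and 13). It fell by 1.43 on the log2 scale (SE 0.39, adjusted p = 0.00616), with a difference of -0.47 per tube (adjusted p = 0.366), and was not called by DESeq2 (0.103). Atp5b, the catalytic beta subunit, had 123, 122, 175 and 201 UMIs, a difference of -0.34 (SE 0.16, adjusted p = 0.0989) that turned to 0.62 per tube (adjusted p = 0.00765) and 0.38 after correction for abundance (adjusted p = 0.0386). Calls were lost for Atp5b without sham replicate 1, sham replicate 2 or overloaded replicate 2 (0.257, 0.321 and 0.293), for Atp5g1 without the same libraries (0.151, 0.389 and 0.193), for Atp5g3 without either sham library (0.146 and 0.126) and for Atp5k without sham replicate 2 (0.133).

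The name rule also took in 9 genes that are not subunits: 8 complex I assembly factors (Ndufaf) and Atp5s, a coupling factor. Of the 7 tested 5 rose and 0 fell, but 6 of the 7, all 5 that rose among them, passed the filter through the overloaded libraries alone, where 62.9% of all such genes were called higher and 0 lower, so that nothing is read from the count. The 1 that passed in both groups was not called. Ndufaf6 had 3, 1, 19 and 22 UMIs and rose by 2.35 (SE 0.58, adjusted p = 0.00295), or 3.24 without sham replicate 1. Ndufaf3 had 2, 3, 12 and 21 UMIs and rose by 1.72 (SE 0.56, adjusted p = 0.0168), a call lost without sham replicate 1 (0.198). After correction for abundance Ndufaf3 was not called (1.16, adjusted p = 0.119). Ndufaf6 and Ndufaf3 had low counts, at which 1 UMI in a library is 2.03 to 4.53 CPM (counts scaled to the TMM-adjusted library size). Ndufaf3 overlaps Impdh2 on the other strand, as Cox6a2 does Itgad, Uqcrc2 does Pdzd9 and Cox4i1 does Emc8. Among further members with such a partner, Atp5l overlaps Gm30934, Uqcrh Gm12854, Sdha Gm16125 and Atp5j the regulator gene Gabpa. Because the strand setting of the counting is not given, reads of such partners cannot be told apart. Several respiratory chain genes also have processed pseudogenes that could share their reads.

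**Figure D2:**
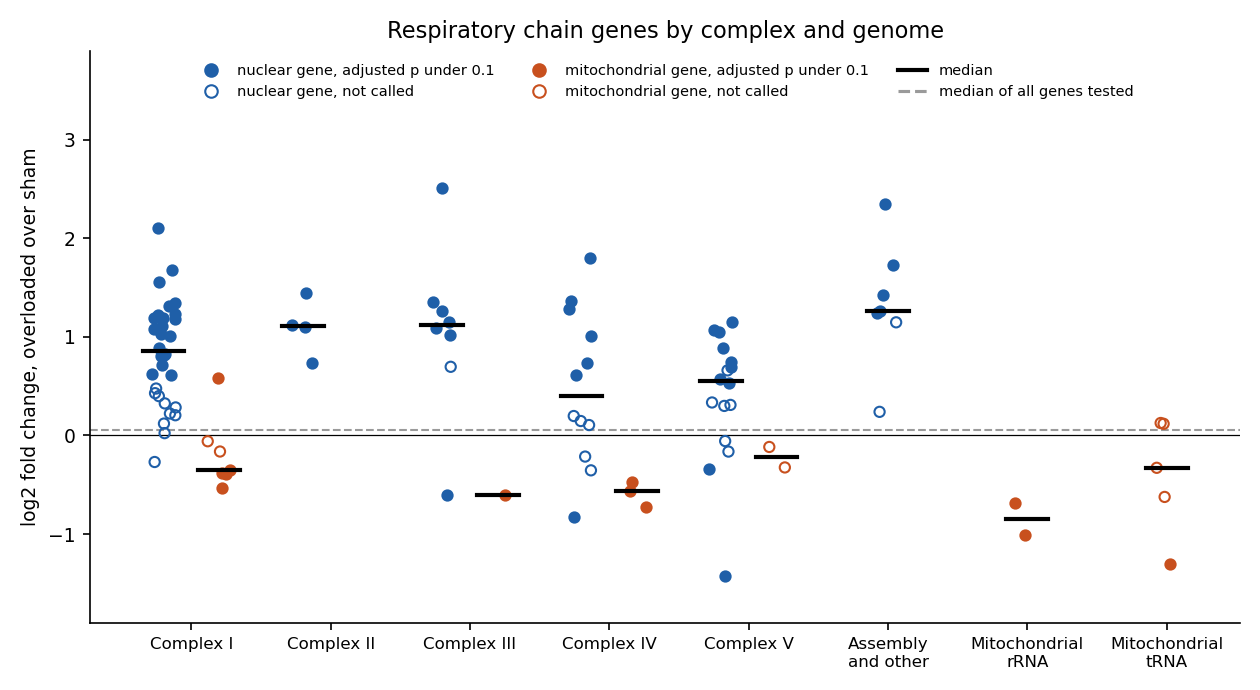
Log2 fold change of overloaded over sham after TMM scaling (y axis) for each tested nuclear (blue) and mitochondrial (orange) gene by complex; filled points had an adjusted p under 0.1, bars are medians and the dashed line is the median of all genes (0.05). Nuclear medians lie between 0.40 and 1.26, the highest being that of the assembly genes, of which 6 of 7 were tested through the overloaded libraries alone, whereas mitochondrial protein genes lie between -0.73 and 0.58 on this scale, a direction that turned positive per tube and after correction for abundance.

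The mitochondrially encoded mRNAs lay below the bulk of other transcripts after TMM scaling and above it after correction for abundance. The distance of their median to that of the nuclear genes was -1.20 on the former scale and -0.18 on the latter. The 13 protein genes summed to 3652, 3388, 4907 and 5457 UMIs, or 1.35%, 1.30%, 1.26% and 1.13% of each library, so that the share was lower in both overloaded libraries while the number per tube was higher. All 13 passed the filter in both groups, and 1 was called higher, 8 lower and 4 neither, with a median log2 fold change of -0.38, but per tube the direction was the opposite, with 12 higher (62% of all genes), 0 lower (4.58%) and a median of 0.57, as it was after correction for abundance, described below. Per tube the median of all genes also moved, to 1.01, so that the mitochondrial mRNAs were 0.44 below it, as they were 0.43 below it after TMM scaling. Without sham replicate 1 or sham replicate 2 there were 5 and 3 called lower and 0 higher. With library sizes alone (all-gene median 0.33) they were 0.43 below, with 1 called higher and 2 lower. After correction for abundance they were instead 0.65 above it, and the nuclear members 0.83 above. The nuclear members were 0.77 above the median of all genes after TMM scaling and 0.76 above it per tube.

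By complex, mt-Cytb, the cytochrome b of complex III, had 679, 578, 738 and 860 UMIs and a log2 fold change of -0.61 (SE 0.16, adjusted p = 0.00577), against 0.35 per tube (adjusted p = 0.0179). The 3 subunits of complex IV that form its catalytic core were called lower relative to other transcripts and were not lower per tube. Of these mt-Co1 had 172, 169, 198 and 199 UMIs (-0.73, SE 0.17, adjusted p = 0.00207), mt-Co2 had 170, 222, 248 and 302 (-0.47, SE 0.17, adjusted p = 0.0320) and mt-Co3 had 196, 188, 238 and 267 (-0.56, SE 0.16, adjusted p = 0.00844). After correction for abundance mt-Cytb, mt-Co2 and mt-Co3 were higher (0.72, 0.45 and 0.34, adjusted p = 0.000104, 0.0218 and 0.0455) and mt-Co1 was not called (0.09, adjusted p = 0.631). Leaving out sham replicate 1 ended the call of mt-Cytb (0.121), and leaving out sham replicate 2 that of mt-Co2 (0.455).

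Of the 7 mitochondrial subunits of complex I, 4 were called lower after TMM scaling, none of which was lower per tube. mt-Nd1 had 566, 459, 709 and 813 UMIs (-0.38, SE 0.16, adjusted p = 0.0667), mt-Nd2 had 383, 349, 508 and 573 (-0.39, SE 0.16, adjusted p = 0.0521) and mt-Nd4 had 606, 509, 777 and 914 (-0.35, SE 0.16, adjusted p = 0.0841). These calls were lost without sham replicate 1 (0.453, 0.285 and 0.459) or sham replicate 2 (0.128, 0.183 and 0.180). For mt-Nd3, with 105, 141, 182 and 144 UMIs (-0.53, SE 0.22, adjusted p = 0.0543), the groups overlapped, and the call was lost without sham replicate 2 (0.398) or overloaded replicate 2 (0.424). mt-Nd5 (179, 167, 314 and 327 UMIs) and mt-Nd6 (333, 280, 489 and 572) were not called (-0.06 and -0.16, adjusted p = 0.792 and 0.422). Per tube mt-Nd1, mt-Nd2, mt-Nd4, mt-Nd5 and mt-Nd6 were called higher (0.57, 0.56, 0.60, 0.89 and 0.79), as they were after correction for abundance (0.90, 0.77, 0.96, 0.86 and 0.96), while mt-Nd3 was called higher per tube alone (0.41 and 0.15). mt-Nd6 is encoded on the minus strand and shares 14 bases with mt-Nd5. Without the strand setting of the counting, its reads cannot be assigned to mt-Nd6 or to a transcript of the other strand.

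The 1 mitochondrial mRNA called higher after TMM scaling was mt-Nd4l, the smallest counted of the complex I genes, with 21, 25, 67 and 67 UMIs. It was higher in both overloaded libraries (log2 fold change 0.58, SE 0.26, adjusted p = 0.0736), but the call was lost without sham replicate 1, sham replicate 2 or overloaded replicate 1 (0.374, 0.115 and 0.306) and with DESeq2. It shares 7 bases and, as is known, its transcript with mt-Nd4, whose value was -0.35 after TMM scaling. This order turned after correction for abundance, where mt-Nd4 was at 0.96 and mt-Nd4l at 0.56 (adjusted p = 0.0902), and 12 of the 13 mRNAs were called higher per tube. The complex V genes mt-Atp6 and mt-Atp8, which also share a transcript and 43 bases, were not called. mt-Atp6 had 194, 266, 341 and 371 UMIs (-0.33, adjusted p = 0.152) and mt-Atp8 had 48, 35, 98 and 48 (-0.12, adjusted p = 0.799), with overloaded replicate 1 above the other 3 libraries. Both were called higher per tube (0.63 and 0.81), and mt-Atp6 also after correction for abundance (0.67, against 0.0017 for mt-Atp8).

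Both mitochondrial rRNAs were called lower relative to other transcripts. mt-Rnr1, the small-subunit rRNA (chromosome MT, 70 to 1024, plus strand), had 461, 387, 432 and 375 UMIs, about the same number in each tube, which was a log2 fold change of -1.01 relative to other transcripts (SE 0.18, adjusted p = 0.000339). mt-Rnr2, the large-subunit rRNA (1094 to 2675), had 753, 714, 774 and 1011 UMIs (-0.68, SE 0.16, adjusted p = 0.00230). Their summed share went from 0.450% and 0.423% to 0.311% and 0.287%, and per tube mt-Rnr1 was not called (-0.07, adjusted p = 0.659) while mt-Rnr2 was higher (0.28, adjusted p = 0.0502). After correction for abundance mt-Rnr2 was higher (0.70, adjusted p = 0.000250) and mt-Rnr1 was not called (0.12, adjusted p = 0.460). rRNAs carry at most short tails, so that poly(A) priming captures an unknown part of them.

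Reads on the mitochondrial tRNA genes fell almost wholly on genes of 1 strand. The 9 tRNA genes of the plus strand with a row in the count file had 14, 15, 22 and 18 UMIs together, and the 7 such genes of the minus strand had 249, 278, 353 and 354. The 5 that could be tested (mt-Tn, mt-Tc, mt-Ty, mt-Ts1 and mt-Tp) were all on the minus strand, and 1 of them, mt-Ts1, with 109, 125, 82 and 103 UMIs, was called lower (-1.30, SE 0.17, adjusted p = 1.83e-05; -0.34 per tube, adjusted p = 0.188). The tRNA lies against the end of mt-Co1 on the opposite strand, with 3 shared bases. tRNAs lack poly(A) tails, and without the strand setting such reads cannot be assigned to the tRNA or to a transcript of the other strand.

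The balance between the genomes was also taken within each library, where scaling between libraries plays no part. Nuclear subunits gave 0.642, 0.645, 1.16 and 1.23 UMIs for each UMI of the 13 mitochondrial mRNAs. The means were 0.644 ± 0.00156 (SD, n = 2) in sham and 1.20 ± 0.0509 in overloaded libraries, a rise to 1.86 times the sham value. For complex I the ratio was 0.302, 0.324, 0.634 and 0.711, for complex III 0.345, 0.386, 0.848 and 0.845, and for complex IV 1.18, 0.983, 1.98 and 1.91. These were 2.15, 2.32 and 1.80 times the sham mean, and the groups did not overlap. For complex V the ratios of 3.08, 2.30, 3.48 and 4.30 did not overlap either and were 1.45 times the sham mean. With 2 libraries against 2 an exact two-sided permutation test cannot give a p below 0.333, so that the ratio was not tested.

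**Figure D3:**
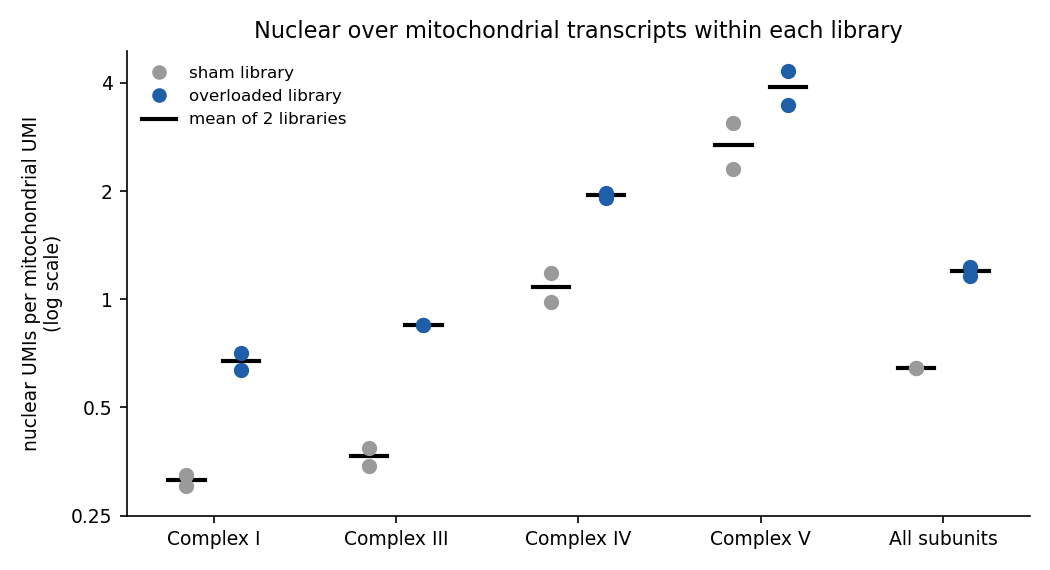
UMIs of nuclear subunit genes for each UMI of mitochondrial protein genes (y axis, log scale) within each sham (grey) and overloaded (blue) library, for the complexes encoded by both genomes and for all subunits, with bars at the mean of 2 libraries. In each complex both overloaded libraries lie above both sham libraries, from 1.45 times in complex V to 2.32 times in complex III.

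This difference between the genomes went along with a difference in abundance. Over all genes, the log2 fold change fell with abundance, from a median of 0.53 in the least abundant of 10 equal groups of genes to -0.74 in the most abundant, where 42 genes were called higher and 512 lower of 723. Of the 13 mitochondrial mRNAs 11 were in that most abundant group, with a median of -0.39 and 0 higher and 8 lower, each of them above the median of that group. Of the 79 nuclear members 10 were in it, and they had a median of -0.11, with 2 higher and 2 lower. The 69 nuclear members of lower abundance had a median of 1.01, with 49 higher and 2 lower. When each library was corrected for the trend with abundance across all genes (median of all genes 0.02, with 24% called higher and 23.5% lower), the nuclear members kept a median of 0.85, with 51 higher and 2 lower, while the mitochondrial mRNAs turned from -0.38 to 0.67, with 10 higher and 0 lower. The distance between the mitochondrial and the nuclear median, -1.20 after TMM scaling and -1.20 per tube, was then -0.18. The most abundant genes, the mitochondrial ones among them, themselves set the correction at that end. The part of abundance in the difference between the genomes was not tested further.

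**Figure D4:**
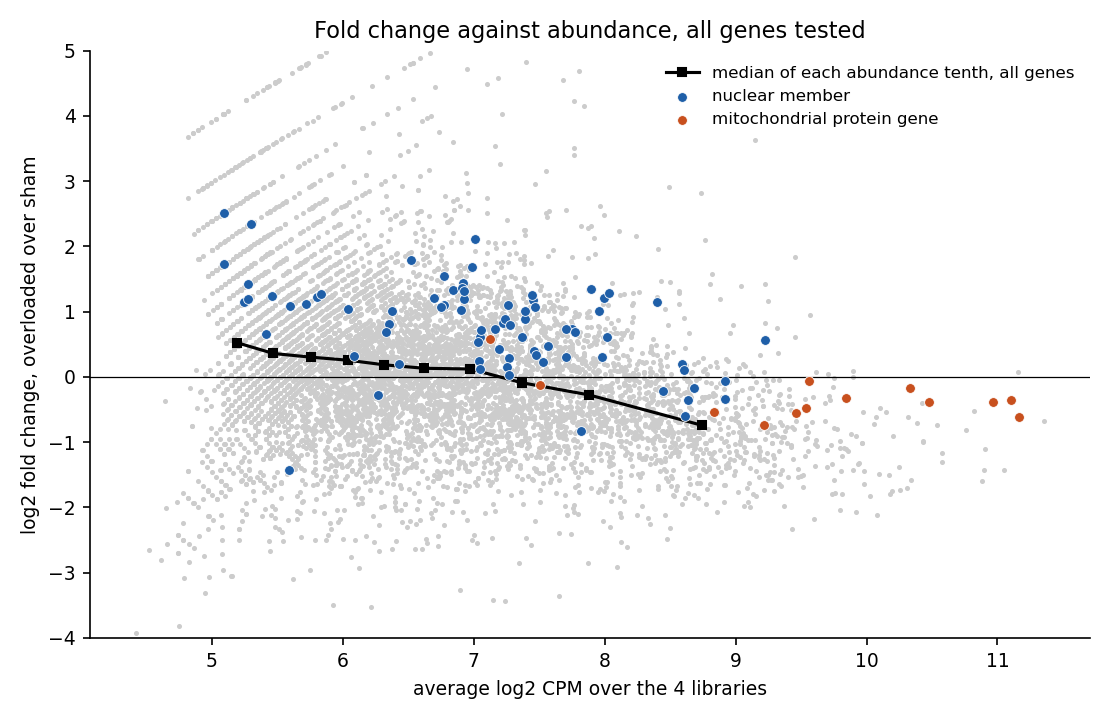
Log2 fold change of overloaded over sham after TMM scaling (y axis, 64 genes lie outside the range of -4 to 5) against average log2 CPM (x axis) for all 7228 genes tested (grey), with nuclear members in blue, mitochondrial protein genes in orange and the median of each of 10 abundance groups as black squares. The medians fall from 0.53 to -0.74, most mitochondrial mRNAs lie at the abundant end, where their negative values turned positive after correction for abundance, and most nuclear members lie above the line.

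Genes that act with the respiratory chain were described from further lists. Of the 9 subunits outside the name rule and electron carriers in the file, 8 were tested, 5 rose and 0 fell, with a median log2 fold change of 0.83, and 3 of the 5 that passed the filter in both groups rose. Cyc1, the cytochrome c1 of complex III, had 37, 26, 104 and 131 UMIs and rose by 0.94 (SE 0.21, adjusted p = 0.00180). Gpd2, which feeds electrons from glycerol 3-phosphate to ubiquinone, had 8, 12, 33 and 49 UMIs and rose by 1.06 (SE 0.36, adjusted p = 0.0230), a call lost without sham replicate 1 (0.195). Gpd2 passed the filter through the overloaded libraries alone, where 62.9% of all such genes were called higher. Cytochrome c itself, Cycs, had 23, 17, 29 and 28 UMIs and was not called (-0.44, adjusted p = 0.286). Of 35 further assembly factors 20 were tested, of which 16 rose and 1 fell. However, 16 of the 20 passed the filter through the overloaded libraries alone, and of the 4 that passed in both groups 2 rose and 1 fell. Sdhaf4, which helps mature complex II and passed through the overloaded libraries alone, had 0, 0, 17 and 33 UMIs, at least 8.55-fold higher with the sham group at the same floor. Ttc19, a complex III assembly factor, fell by 1.14 on the log2 scale, with 66, 55, 30 and 78 UMIs (SE 0.26, adjusted p = 0.00183), but it was not called per tube, and its overloaded libraries differed widely (-0.74 without overloaded replicate 1 and -1.74 without overloaded replicate 2).

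Most tested enzymes of the tricarboxylic acid cycle and pyruvate entry, which supply NADH and succinate, were called higher. Of 18 genes 15 were tested, 10 rose and 0 fell, with a median log2 fold change of 0.61, and 9 of the 14 that passed the filter in both groups rose, against 14.9% of all such genes. Suclg1, a subunit of succinyl-CoA ligase, had 21, 15, 83 and 100 UMIs and rose by 1.38 (SE 0.25, adjusted p = 0.000271), the largest rise of the list. Carriers gave 4 of 7 higher and 1 lower, or 3 and 1 of the 6 that passed the filter in both groups, against 14.9% and 32.9% of all such genes. Ucp2, an uncoupling protein and the carrier that passed through the overloaded libraries alone, had 7, 0, 43 and 76 UMIs and rose by 3.08 (SE 0.54, adjusted p = 0.000210), a call that DESeq2 did not make. The value was 2.09 without sham replicate 2, and no sham UMI was left without sham replicate 1. Slc25a3, the phosphate carrier that supplies the ATP synthase, had 150, 146, 160 and 150 UMIs, almost the same in each tube, and fell by 0.88 relative to other transcripts (SE 0.18, adjusted p = 0.000748), against 0.07 per tube (adjusted p = 0.755). After correction for abundance Slc25a3 was not called (-0.15, adjusted p = 0.428). Of 7 antioxidant enzymes, which all passed in both groups, 4 rose and 2 fell. Per tube all 7 were higher, against 62% of all genes tested, and after correction for abundance 4 were higher and 0 lower, against 24% and 23.5%. Gpx1, a glutathione peroxidase, had 23, 14, 123 and 133 UMIs and rose by 1.83 (SE 0.25, adjusted p = 1.89e-05). Sod1, the cytosolic superoxide dismutase, had 113, 115, 159 and 138 UMIs (-0.56, SE 0.19, adjusted p = 0.0236), a fall that was not seen per tube (0.38) or after correction for abundance (0.07) and was lost without overloaded replicate 2 (0.238).

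The nuclear genes that replicate, transcribe and translate the mitochondrial genome were mostly too low to test. Of 41 genes 16 were tested, 7 rose and 1 fell, but of the 6 that passed the filter in both groups 1 rose and 1 fell. Polrmt, the mitochondrial RNA polymerase, had 2, 2, 12 and 19 UMIs and rose by 1.95 (SE 0.58, adjusted p = 0.0103), a call lost without sham replicate 1, sham replicate 2 or overloaded replicate 1 (0.124, 0.115 and 0.111). Lrpprc, which stabilizes mitochondrial mRNAs, had 14, 6, 61 and 62 UMIs and rose by 1.66 (SE 0.35, adjusted p = 0.000936), or 2.32 without sham replicate 1. Elac2, which cuts the 3′ ends of tRNAs out of the precursor, had 2, 1, 19 and 18 UMIs, a ratio of 6.33 (2.0 to 32.1, adjusted p = 0.00246). Polrmt, Lrpprc and Elac2 all passed the filter through the overloaded libraries alone, where 62.9% of all such genes were called higher. Tfam, which packs mitochondrial DNA and starts its transcription, had 13, 19, 45 and 50 UMIs and was not called (0.61, SE 0.31, adjusted p = 0.117). Polg, the mitochondrial DNA polymerase, had 17, 20, 12 and 20 UMIs and fell by 1.17 on the log2 scale (SE 0.36, adjusted p = 0.0143), but was not called per tube or by DESeq2. The proteins of the mitochondrial ribosome, all of them nuclear-encoded, rose in 51 of the 65 tested of 75, with 3 lower. Of these 45 passed the filter through the overloaded libraries alone, and of the 19 that passed in both groups 10 rose and 2 fell, with a median of 0.70, against 14.9% and 32.9% of all genes that did so. Mrps31, which passed through the overloaded libraries alone, had 0, 1, 27 and 22 UMIs, a ratio of 25.1 (4.30 to 1013, counting error only). Mrps6, with 71, 60, 51 and 58 UMIs, fell by 1.22 on the log2 scale (SE 0.20, adjusted p = 0.000127) and was not called per tube.

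The transcription factors and coactivators known to control respiratory chain genes gave counts near those of all genes. Of 10 genes 7 were tested, 1 rose and 2 fell (14.3% and 28.6%, against 25.8% and 26.3%), with a median log2 fold change of 0.13. The 1 that rose, Ppargc1b, passed the filter through the overloaded libraries alone, and of the 6 that passed in both groups 0 rose and 2 fell. Per tube 4 of the 7 were higher and 0 lower, against 62% and 4.58% of all genes tested, and after correction for abundance 0 were higher and 1 lower, against 24% and 23.5%. Nrf1, whose motif letters were given above, had 20, 19, 40 and 43 UMIs (0.13, adjusted p = 0.743), and Gabpa had 14, 12, 30 and 33 (0.32, adjusted p = 0.476). Their UMIs per tube were higher in both overloaded libraries, but not beyond other transcripts. The coactivator Ppargc1a (PGC-1 alpha) had 2, 1, 2 and 6 UMIs and the receptor Esrra 2, 0, 4 and 6, too few to test. Ppargc1b had 7, 4, 17 and 26 UMIs and rose by 0.99 (SE 0.45, adjusted p = 0.0836), a call lost whichever library was left out (0.118 to 0.442). Pprc1, a related coactivator, had 35, 27, 25 and 28 UMIs and fell by 1.18 on the log2 scale (SE 0.29, adjusted p = 0.00323), with a difference of -0.23 per tube (adjusted p = 0.605), and Yy1, with 72, 70, 85 and 96 UMIs, fell by 0.61 on the log2 scale (SE 0.18, adjusted p = 0.0117) but not per tube (0.35, adjusted p = 0.218). After correction for abundance Pprc1 was lower (-1.31, adjusted p = 0.00146) and Yy1 was not called (-0.27, adjusted p = 0.246).

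**Figure D5:**
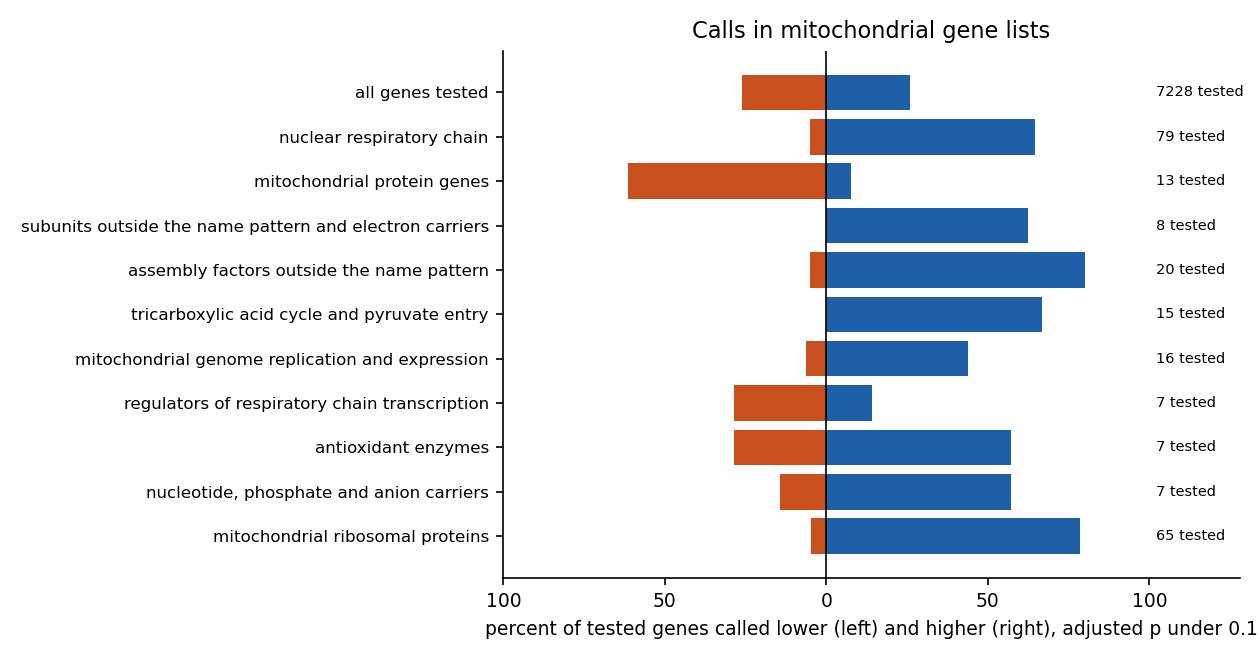
Percent of the tested genes of each list called lower (orange, left) and higher (blue, right) in overloaded libraries after TMM scaling at an adjusted p under 0.1, with the number tested at the right. All genes have 26.3% lower and 25.8% higher. The nuclear respiratory chain, assembly factors and mitochondrial ribosomal proteins have most genes higher (64.6%, 80.0% and 78.5%). So do the tricarboxylic acid cycle (66.7%), further subunits and electron carriers (62.5%), antioxidant enzymes (57.1%) and other carriers (57.1%). Of the assembly factors 16 of 20, and of the mitochondrial ribosomal proteins 45 of 65, were tested through the overloaded libraries alone. The mitochondrial protein genes have 8 of 13 lower on this scale and 12 of 13 higher per tube.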

How the data were processed

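MuSCs were sorted into tubes of 100 cells, and 2 sham and 2 overloaded libraries were compared. The authors extracted barcodes and UMIs with UMI-tools (v.1.0.0), mapped reads to GRCm38 with HISAT2 (v.2.1.0), assigned them to genes with featureCounts (v.1.6.4) and collapsed UMIs by the directional method, and the deposited values are UMI counts per gene without normalization. The annotation release and the strand setting are not given in the sources used here. Coordinates and biotypes were matched by identifier to the GENCODE annotation of GRCm38.

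Genes were kept by filterByExpr (minimum count 10, minimum total 15), scaled by TMM and tested with glmQLFit and glmQLFTest in edgeR (version 4.0.16, R version 4.3.3), both groups sharing 1 estimate of the spread (common biological coefficient of variation 9.50%), with Benjamini-Hochberg adjustment over 7228 genes and a threshold of 0.1. At an unadjusted p under 0.05, 3732 genes passed. Fitted fold changes used a prior count of 0.125. Intervals of shares and of ratios are exact binomial (Clopper-Pearson), at 95%. DESeq2 (version 1.42.0) and other scalings were alternatives, among them UMIs per tube without scaling and offsets fitted by loess (span 0.3, limma version 3.58.1) that remove the trend with abundance. Counts were also corrected for barcodes that were drawn repeatedly, with 4096 possible barcodes and, chosen after seeing the data, 2000.

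The members, the lists and the tests were chosen with earlier results of these data known. The text names all mitochondrial protein and rRNA genes, up to 2 members of each complex with the largest rise and fall whose groups did not overlap, isoform sets, the extremes of each list and some known regulators. Genes named beyond that rule, to complete small counts or ranges, were chosen after their values were seen. Proteins of isoforms were not analysed here.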

Additional observations from a re-analysis of the deposited data

How the results depend on the processing

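More nuclear members were called higher than lower under every alternative run, with 26 (DESeq2) to 75 (UMIs per tube) called higher against 51, while the direction of the mitochondrial mRNAs depended on the scaling. Per tube, where the median of all genes was 1.01, there were 0 nuclear members lower, 12 mitochondrial protein genes higher and 0 lower, and the medians were 1.77 (nuclear) and 0.57 (mitochondrial). Reversed there were mt-Rnr2 (0.28), mt-Nd1 (0.57), mt-Nd2 (0.56), mt-Co1 (0.22), mt-Co2 (0.49), mt-Atp8 (0.81), mt-Atp6 (0.63), mt-Co3 (0.40), mt-Nd3 (0.41), mt-Nd4 (0.60), mt-Nd5 (0.89), mt-Nd6 (0.79), mt-Cytb (0.35), Uqcrh (0.34), Cox7a2l (0.13), Atp5b (0.62), Cox4i1 (0.60), Cox6a1 (0.74), Sod1 (0.38), Slc25a3 (0.067) and Cycs (0.51) in log2 fold change. With offsets for abundance there were 2 nuclear members lower, 10 mitochondrial protein genes higher and 0 lower, the mitochondrial median was 0.67 and its distance to the nuclear median -0.18. Reversed there were mt-Rnr1 (0.12), mt-Rnr2 (0.70), mt-Nd1 (0.90), mt-Nd2 (0.77), mt-Co1 (0.089), mt-Co2 (0.45), mt-Atp8 (0.0017), mt-Atp6 (0.67), mt-Co3 (0.34), mt-Nd3 (0.15), mt-Nd4 (0.96), mt-Nd5 (0.86), mt-Nd6 (0.96), mt-Cytb (0.72), Uqcrh (0.00028), Atp5b (0.38), Cox4i1 (0.26), Cox6a1 (0.33), Sod1 (0.074) and Nrf1 (-0.0024). With library sizes alone, where the median of all genes was 0.33, there were 2 nuclear members and 2 mitochondrial protein genes lower, the medians were 1.10 and -0.11, and mt-Atp8 (0.16), mt-Nd5 (0.22), mt-Nd6 (0.11) and Cox6a1 (0.062) turned. DESeq2 gave 26 nuclear members higher and 1 lower and 0 mitochondrial protein genes higher. Without the filter the nuclear median was 0.90, the median of all genes then being 0.13, and mt-Nd5 was at 0.019. At an adjusted p under 0.05 there were 4 mitochondrial protein genes lower and 0 higher. In counts thinned to the smallest library 2 nuclear members were lower and mt-Nd5 was at 0.011. With 2000 usable barcodes 5 mitochondrial protein genes were lower. Leaving out each library in turn gave 2 to 5 nuclear members lower, nuclear medians of 0.75 to 0.87, and 3 to 11 mitochondrial protein genes lower and 0 to 2 higher, and ranges of -0.90 to 0.51 for mt-Atp8, -0.19 to 0.13 for mt-Nd5 and -0.12 to 0.39 for Cox7a2. Where a library alone remained in its group, it was assumed to vary like the other group. Of other changed calls among the 60 named genes tested, most were lost in DESeq2 (18) and without either sham library (14 each). The causes of these changes were not tested.

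Libraries with the same number did not deviate together (correlation of -0.035 over 7228 genes), and the labels do not say that numbers mark pairs. Because libraries of a group differed little beyond sampling noise, this correlation cannot decide whether libraries with the same number shared a mouse. In other experiments of the paper the sham muscle was the contralateral one, and for these libraries this is not stated. With the replicate block 50 nuclear members were higher and 3 lower, and 1 and 8 mitochondrial protein genes. Among named genes the calls of Atp5b (adjusted p = 0.108) and Ppargc1b (0.114) were lost.

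With 1 UMI worth 2.03 to 4.53 CPM, 12 of the 91 nuclear members and 11 of the 16 tRNA genes were too low to test.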
